A study of Mus musculus with 20 samples.

Results

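Pou5f1, Sox2, Nanog, Dppa2, Dppa3, Dppa4, Utf1, Khdc1a, Klf4 and Tbx3 are 10 mouse genes known from pluripotent cells and from primordial germ cells, the founders of the germ line. They were taken by symbol from a list, and all 10 had a row in each of the 3 deposited tables, among 23853 gene symbols common to those tables. The data were RNA sequencing read counts from 20 libraries of male mouse germ cells, collected by flow sorting for GFP from animals of mixed strain background. Cells lacking Tex15 (Tex15-/-, here KO) and cells with 1 intact allele (Tex15+/-, here het) were sampled at embryonic day 16.5 (e16.5, 3 KO and 3 het libraries), embryonic day 18.5 (e18.5, 3 and 3) and postnatal day 2 (d2, 4 and 4). Het cells served as the comparison throughout, so both genotypes carry at least 1 mutant Tex15 allele and no wild-type cells enter the comparisons. The promoter that drives GFP is not given in the sources used here. The study design speaks of biological triplicates while d2 has 4 libraries per genotype, and the labels do not tie libraries to animals, so p-values below measure the spread between these libraries.

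Mouse primordial germ cells keep much of the pluripotency network switched on after they reach the gonad. OCT4 (the product of Pou5f1), SOX2 and NANOG are transcription factors that bind regulatory DNA together and maintain one another's expression in embryonic stem cells, while factors such as KLF4, TBX3 and ESRRB feed into the same network. In the fetal testis the germ cells become prospermatogonia, stop dividing, lose most of this expression and rebuild DNA methylation before birth, and they return to division in the days after birth. TEX15 is a germ cell protein known to be needed for retrotransposon silencing in fetal male germ cells and for meiotic recombination.

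Promoter windows from RefSeq (build GRCm38.p6, 250 bases before to 50 bases after the annotated start) were matched for 5 of the 10 genes: Pou5f1, Sox2, Nanog, Utf1 and Klf4. The windows of the 3 core factors are shown because these genes parted from each other in the data, with Nanog and Sox2 varying widely between e16.5 het libraries and Pou5f1 hardly. Capitals mark matches to 2 motifs, on either strand. The octamer core, which OCT4 binds, was searched as ATGCAAA and as its reverse complement. The core that SOX proteins bind was searched as CATTGT and as its reverse complement. Nanog lies at chr6:122707239-122707538, Sox2 at chr3:34649745-34650044 and Pou5f1 at chr17:35505782-35506081, each on the plus strand, and each sequence is written from 5′ to 3′ on that strand.
Nanog: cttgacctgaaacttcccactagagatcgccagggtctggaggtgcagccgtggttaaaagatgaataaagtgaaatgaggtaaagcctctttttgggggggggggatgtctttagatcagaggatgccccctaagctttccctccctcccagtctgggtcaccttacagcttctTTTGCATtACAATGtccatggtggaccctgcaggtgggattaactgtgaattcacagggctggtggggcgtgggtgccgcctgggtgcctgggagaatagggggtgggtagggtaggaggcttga
Sox2: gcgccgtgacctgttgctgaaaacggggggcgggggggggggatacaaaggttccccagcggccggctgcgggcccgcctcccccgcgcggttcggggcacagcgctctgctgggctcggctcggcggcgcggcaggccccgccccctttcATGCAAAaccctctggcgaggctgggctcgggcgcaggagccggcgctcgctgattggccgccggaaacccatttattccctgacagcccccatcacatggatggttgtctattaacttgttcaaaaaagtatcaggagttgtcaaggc
Pou5f1: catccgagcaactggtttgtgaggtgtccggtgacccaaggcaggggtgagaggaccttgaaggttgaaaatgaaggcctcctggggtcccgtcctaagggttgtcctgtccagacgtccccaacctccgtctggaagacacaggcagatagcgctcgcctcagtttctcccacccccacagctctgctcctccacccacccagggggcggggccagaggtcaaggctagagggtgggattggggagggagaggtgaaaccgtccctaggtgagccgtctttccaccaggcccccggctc
The Nanog window held 1 octamer core and 1 SOX core with 1 base between them. The Sox2 window held 1 octamer core and no SOX core. The first Pou5f1 window held neither, and a second annotated Pou5f1 start had 1 SOX core. Utf1 and Klf4 had no match to either motif in their windows. Both strands were searched, and the 2 matches in the Nanog window do not overlap. Among 32851 windows of the same length, 4.63% held the octamer core, 12.57% the SOX core and 0.81% both. In 0.018% (6 windows) both lay with at most 3 bases between them, a distance chosen after the Nanog window was seen. A second annotated Nanog start had an overlapping window with the same 2 matches, and both Nanog windows are counted among the 6. CpG dinucleotides numbered 4 in the Nanog window, 11 in the first Pou5f1 window, 17 in Utf1, 27 in Sox2 and 40 in Klf4, against a median of 7. These are matches of letters, and no binding was measured. Dppa3 and Khdc1a, which varied most between the e16.5 het libraries, had no matched window. Whether these matches bear on the spread between libraries was not tested.

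The libraries held 14328826 to 31496510 counts in all, of which 7775062 to 14202847 were in genes. Levels are CPM, a gene's count divided by its library's total gene count and multiplied by a fixed factor, with library totals scaled by the trimmed-mean (TMM) method. Tex15 itself was at 3.56 to 5.34 CPM in KO cells and 1727 to 2103 CPM in het cells at e16.5, and at 1.70 to 4.41 CPM in KO cells and 1267 to 1770 CPM in het cells at e18.5. At d2 it was at 2.04, 2.47 and 2.61 CPM in 3 KO libraries and 612 to 1013 CPM in het cells, while the library labelled KO d2 replicate 2 had 102 CPM (799 counts). That library had the fewest gene counts of all (7775062) and was the highest of the 4 KO d2 libraries for 6 of the 10 genes. For how many of all genes it was the highest was not counted. Results at d2 that rest on it are also given without it. The 8 germ cell markers (Ddx4, Dazl and others) summed to 3957 to 6901 CPM over the 6 groups, none of them at 0. Markers of other testis cells were low but present: 9 Sertoli markers summed to 28.5 to 92.0 CPM and 9 stroma markers to 122 to 340 CPM, with none at 0 outside the KO d2 libraries, where at most 1 Sertoli marker was at 0. In bulk samples, fewer cells of a type and less RNA per cell cannot be told apart.

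**Figure D1:**
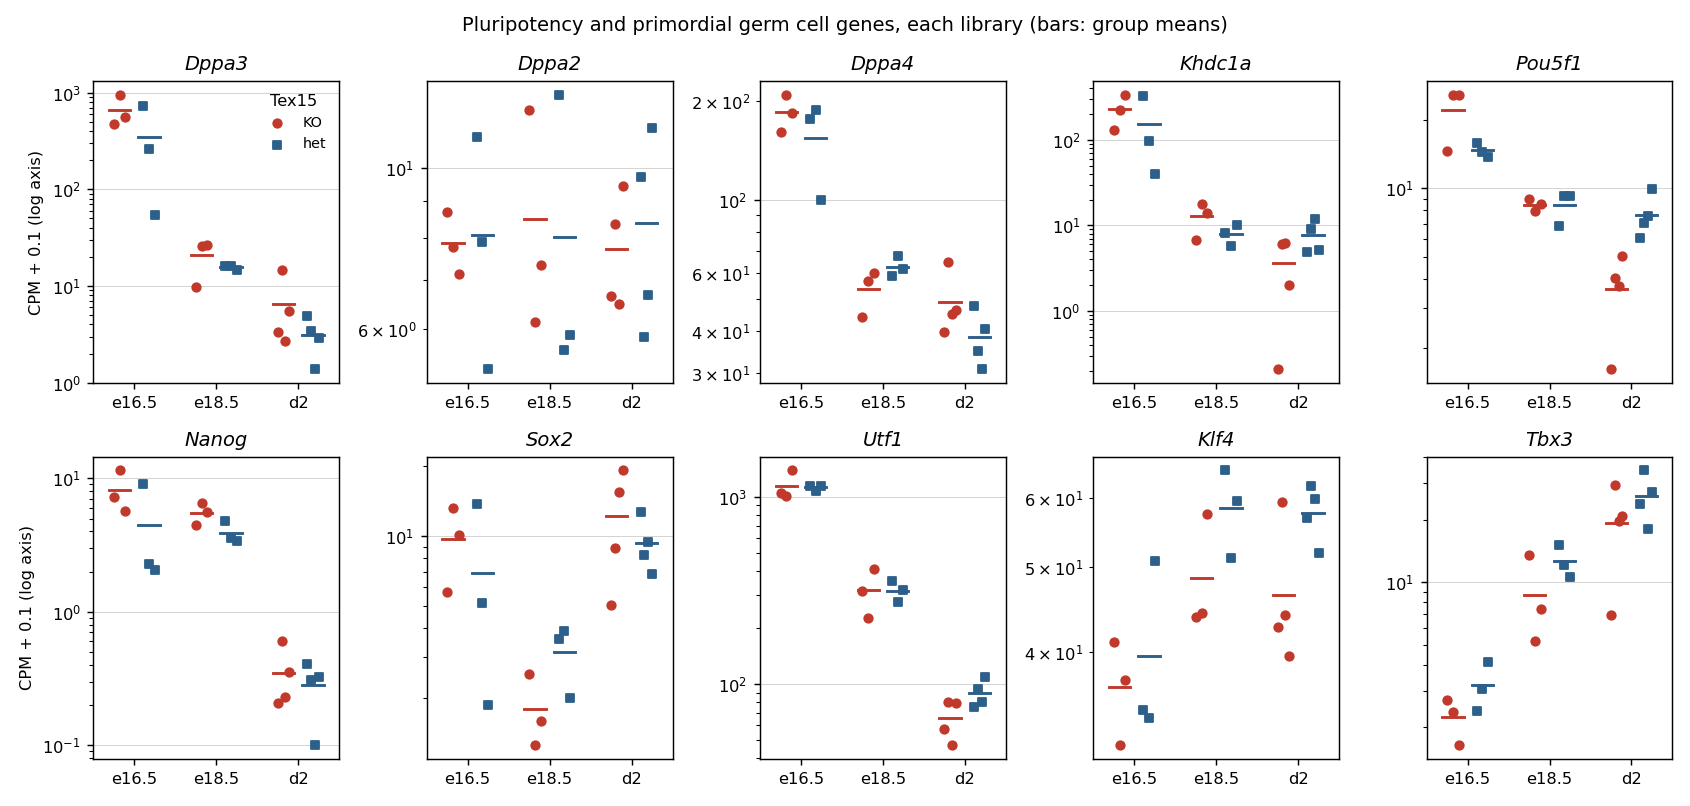
Level of each of the 10 genes in each of the 20 libraries, as CPM + 0.1 on a log axis, with KO (circles) left of het (squares) at e16.5, e18.5 and d2, and bars at the group means. In group means Dppa3 and Utf1 step down with age and Tbx3 steps up, while Dppa2 stays between 7.63 and 8.40 CPM. Khdc1a drops from e16.5 to e18.5, and its het means at e18.5 and d2 are 7.93 and 7.59 CPM. The 3 het libraries at e16.5 are far apart for Dppa3, Khdc1a, Nanog and Sox2.

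The first question was how the genes changed as prospermatogonia aged. Age changes were tested in 1 edgeR quasi-likelihood fit of all 20 libraries, with Benjamini-Hochberg adjustment over 18619 genes and a threshold of 0.05. Age and deposited table cannot be told apart, since each age has its own table. At e18.5 relative to e16.5, 7 of the 10 genes passed in KO cells (1 higher and 6 lower), where 35.1% of all genes passed, 17.5% higher and 17.7% lower, and 6 in het cells (2 higher and 4 lower), where 17.8% did, 7.63% higher and 10.2% lower. At d2 relative to e18.5, 5 passed in KO cells (2 higher, 3 lower), where 55% of genes did, 25.3% higher and 29.7% lower, and 6 in het cells (2 higher, 4 lower), where 51.2% did, 24.1% higher and 27% lower. At d2 relative to e16.5, 7 passed in KO cells (1 higher, 6 lower), where 42.7% of genes did, 20.8% higher and 21.9% lower, and 8 in het cells (2 higher, 6 lower), where 43.1% did, 20.5% higher and 22.7% lower. The median log2 change over the 10 genes for d2 over e16.5 was -2.27 in KO cells, against -0.00082 over all genes, and -1.48 in het cells, against -0.03. KO and het changes are given side by side, and whether they differ is taken up with the genotype comparison.

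Pou5f1, Sox2 and Nanog each followed their own course. Pou5f1 was at 14.5, 25.6 and 25.6 CPM in KO libraries at e16.5, 8.84, 7.85 and 8.46 CPM at e18.5, and 1.505, 3.94, 3.65 and 4.96 CPM at d2. In het libraries it was at 15.7, 14.4 and 13.6 CPM at e16.5, 6.71, 9.11 and 9.17 CPM at e18.5, and 5.98, 6.94, 7.49 and 9.80 CPM at d2. In KO cells the 3 ages did not overlap, each later age lying lower, and in het cells e16.5 stood above both later ages, which overlapped. In KO cells Pou5f1 fell 2.61-fold at e18.5 relative to e16.5 (log2 fold change -1.38, standard error (SE) 0.33, adjusted p = 0.0018) and a further 2.37-fold at d2 relative to e18.5 (-1.25, SE 0.32, adjusted p = 0.00162). In het cells the e18.5 over e16.5 value was -0.81 (SE 0.32, adjusted p = 0.084) and the d2 over e18.5 value -0.14 (SE 0.31), neither of which passed, while d2 was 1.93-fold below e16.5 (-0.95, SE 0.30, adjusted p = 0.0124).

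Sox2 encodes the HMG-box partner of OCT4. KO libraries had 5.65, 13.1 and 10.03 CPM at e16.5, 2.43, 1.15 and 1.48 CPM at e18.5, and 4.94, 8.77, 15.4 and 19.1 CPM at d2. Het libraries had 13.6, 5.05 and 1.76 CPM at e16.5, 3.49, 3.77 and 1.89 CPM at e18.5, and 12.6, 8.20, 9.34 and 6.76 CPM at d2. The e18.5 libraries were the lowest of the 3 ages in both genotypes, apart from het e16.5 replicate 3, which lay below all 3 het e18.5 libraries. In KO cells Sox2 fell 5.61-fold at e18.5 relative to e16.5 (-2.49, SE 0.57, adjusted p = 0.00159) and rose 7.06-fold at d2 relative to e18.5 (2.82, SE 0.56, adjusted p = 0.000146). In het cells the first step did not pass (-1.15, SE 0.54, adjusted p = 0.143), and on leaving out 1 library it ran from -1.61, which passed, without het e16.5 replicate 3 (adjusted p = 0.0223) to -0.14 without het e16.5 replicate 1 (adjusted p = 0.914). The second step was a 2.99-fold rise (1.58, SE 0.52, adjusted p = 0.013) that was lost without het e18.5 replicate 3 (adjusted p = 0.0714). The d2 over e16.5 value in het cells, 0.43 (adjusted p = 0.509), reached 1.44 and passed without het e16.5 replicate 1 (adjusted p = 0.0325). Sox2 lies inside the noncoding gene Sox2ot, which had 2 to 78 counts per library, and whether counting used strand is not given in the sources used here.

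Nanog, the homeodomain factor of the network, was close to the detection limit after birth. KO libraries had 7.12, 11.4 and 5.58 CPM at e16.5, 4.38, 6.42 and 5.50 CPM at e18.5, and 1, 4, 1 and 3 counts at d2. Het libraries had 9.03, 2.197 and 1.96 CPM at e16.5, 4.66, 3.46 and 3.31 CPM at e18.5, and 3, 3, 0 and 2 counts at d2. Every d2 library was below every earlier library in both genotypes. Neither genotype passed between e16.5 and e18.5 (-0.56 with SE 0.53 in KO, -0.21 with SE 0.54 in het). Nanog at d2 relative to e18.5 fell 21.1-fold in KO cells (-4.40, SE 0.64, adjusted p = 2.2e-06) and 19.0-fold in het cells (-4.25, SE 0.65, adjusted p = 6e-06). In het cells the value for d2 over e16.5 was -4.46 (SE 0.65, adjusted p = 3.2e-06), and -3.37 without het e16.5 replicate 1.

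Dppa3 encodes STELLA, a marker of primordial germ cells that protects maternal methylation in the zygote. It was at 478, 954 and 564 CPM in KO libraries at e16.5, 9.73, 26.0 and 26.2 CPM at e18.5, and 3.22, 14.6, 2.60 and 5.38 CPM at d2. In het libraries it was at 733, 264 and 53.7 CPM at e16.5, 16.1, 16.2 and 14.5 CPM at e18.5, and 4.76, 3.29, 1.27 and 2.82 CPM at d2. All 6 libraries at e16.5 stood above every library of the later ages, het replicate 3 by the narrowest margin. Dppa3 fell 32.3-fold in KO cells at e18.5 relative to e16.5 (-5.02, SE 0.83, adjusted p = 0.000374) and 22.4-fold in het cells (-4.49, SE 0.81, adjusted p = 0.00183). The het value was -3.34 without het e16.5 replicate 1. The KO value at d2 relative to e18.5 of -1.69 (SE 0.76, adjusted p = 0.0719) did not pass, but did without KO d2 replicate 2 (-2.41, adjusted p = 0.0217) and with DESeq2 (adjusted p = 0.0221). The 5.04-fold fall in het cells (-2.33, SE 0.81, adjusted p = 0.0264) was lost on leaving out any 1 of het e18.5 replicates 1 and 2 or het d2 replicates 2, 3 and 4 (adjusted p up to 0.0644).

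Dppa4 and Dppa2 encode SAP-domain proteins that work as a pair on chromatin and switch on early embryonic genes. They are neighbours on chromosome 16, followed by Morc1, a germ cell gene of transposon repression. Dppa4 was at 161, 209 and 183 CPM in KO libraries at e16.5, 44.3, 56.7 and 60.1 CPM at e18.5, and 39.8, 65.1, 44.9 and 46.3 CPM at d2. In het libraries it was at 177, 187 and 99.9 CPM at e16.5, 58.7, 67.5 and 61.8 CPM at e18.5, and 47.5, 34.7, 30.5 and 40.4 CPM at d2. The e16.5 libraries lay above all later ones, and d2 lay below e18.5 without overlap in het cells only. Dppa4 fell 3.44-fold in KO cells (-1.78, SE 0.21, adjusted p = 9.8e-07) and 2.47-fold in het cells (-1.30, SE 0.21, adjusted p = 0.000124) at e18.5 relative to e16.5. The next step did not pass in KO cells (-0.13, SE 0.20), and Dppa4 fell 1.64-fold in het cells (-0.71, SE 0.20, adjusted p = 0.00362). Dppa2 differed from its partner in that it passed at no step in either genotype. Its group means were between 7.63 and 8.40 CPM at all 3 ages, single libraries ran from 5.17 to 12.5 CPM, and every pair of groups overlapped. Morc1 averaged 1060 CPM in KO cells and 898 CPM in het cells at e16.5 and fell 2.28-fold in KO cells (-1.19, adjusted p = 4.2e-07) and 2.23-fold in het cells (-1.15, adjusted p = 2.6e-06) at e18.5 relative to e16.5.

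Utf1, a chromatin protein of embryonic stem cells that also marks undifferentiated spermatogonia, fell at both steps in both genotypes. It was at 1045, 1012 and 1381 CPM in KO libraries at e16.5, 315, 226 and 409 CPM at e18.5, and 57.3, 79.7, 47.0 and 79.1 CPM at d2. In het libraries it was at 1143, 1073 and 1147 CPM at e16.5, 355, 273 and 318 CPM at e18.5, and 75.4, 94.1, 80.2 and 109 CPM at d2. No 2 ages overlapped in either genotype. In KO cells Utf1 fell 3.62-fold at e18.5 relative to e16.5 (-1.86, SE 0.20, adjusted p = 3.8e-07) and 4.81-fold at d2 relative to e18.5 (-2.27, SE 0.19, adjusted p = 5.8e-10). In het cells the same steps were 3.55-fold (-1.83, SE 0.20, adjusted p = 2e-06) and 3.52-fold (-1.81, SE 0.18, adjusted p = 2.4e-08), and both steps passed in each genotype whichever library was left out.

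Khdc1a, one of a cluster of KH-domain genes on chromosome 1 known from oocytes and cleavage embryos, was much lower at e18.5 than at e16.5. KO libraries had 132, 221 and 336 CPM at e16.5, 6.57, 17.7 and 13.7 CPM at e18.5, and 0.107, 5.97, 6.12 and 1.93 CPM at d2. Het libraries had 327, 97.0 and 40.3 CPM at e16.5, 8.08, 5.58 and 10.1 CPM at e18.5, and 4.76, 8.90, 11.6 and 5.07 CPM at d2. The e16.5 libraries lay above all others, and the lowest d2 value, KO replicate 1, rested on 1 count. Khdc1a fell 18.2-fold in KO cells (-4.19, SE 0.81, adjusted p = 0.00118) and 19.6-fold in het cells (-4.29, SE 0.82, adjusted p = 0.00257) at e18.5 relative to e16.5, the het value being -3.11 without het e16.5 replicate 1. The d2 over e18.5 value was -1.90 in KO cells (SE 0.80, adjusted p = 0.0573) and -0.05 in het cells. The KO value passed with DESeq2 (adjusted p = 0.0342), with median-ratio scaling (adjusted p = 0.0497) and without KO e18.5 replicate 1 or KO d2 replicate 2 or 3 (adjusted p at least 0.0468). The neighbouring Khdc1b and Khdc1c had at most 22 and 38 counts in any library, and how reads shared by such copies were counted is not given in the sources used here.

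Klf4 and Tbx3, transcription factors that support the naive pluripotent state, passed no test of a fall with age. Klf4 was at 40.9, 31.2 and 37.0 CPM in KO libraries at e16.5, 43.8, 44.3 and 57.4 CPM at e18.5, and 42.7, 59.2, 44.0 and 39.5 CPM at d2. In het libraries it was at 34.2, 33.5 and 50.7 CPM at e16.5, 64.4, 51.2 and 59.5 CPM at e18.5, and 56.9, 61.9, 59.8 and 51.8 CPM at d2. The e16.5 libraries of het cells were all below the later het libraries, by a narrow margin for replicate 3. At e18.5 relative to e16.5 the KO value of 0.41 (SE 0.19, adjusted p = 0.0936) did not pass, and Klf4 rose 1.48-fold in het cells (0.56, SE 0.19, adjusted p = 0.041). That call was lost without het e16.5 replicate 1 or 2 or het e18.5 replicate 1 or 3 (adjusted p up to 0.175), and the rise at d2 relative to e16.5 in het cells (0.55, SE 0.18, adjusted p = 0.0165) was lost without het e16.5 replicate 1 (adjusted p = 0.0785) or 2 (adjusted p = 0.0928).

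Tbx3 was at 2.61, 2.27 and 1.54 CPM in KO libraries at e16.5, 13.5, 5.08 and 7.33 CPM at e18.5, and 6.88, 29.5, 19.5 and 20.7 CPM at d2. Het libraries had 2.30, 2.97 and 4.03 CPM at e16.5, 14.997, 12.0 and 10.5 CPM at e18.5, and 23.8, 34.5, 17.98 and 27.0 CPM at d2. No 2 ages overlapped in het cells, and in KO cells only d2 replicate 1 lay within the e18.5 range. Tbx3 rose 4.04-fold in KO cells (2.01, SE 0.43, adjusted p = 0.000728) and 4.03-fold in het cells (2.01, SE 0.42, adjusted p = 0.00147) at e18.5 relative to e16.5. At d2 relative to e18.5 it rose 2.21-fold in KO cells (1.14, SE 0.37, adjusted p = 0.0107) and 2.07-fold in het cells (1.05, SE 0.36, adjusted p = 0.0181). The KO call at d2 was lost without KO e18.5 replicate 2 (adjusted p = 0.0746) or KO d2 replicate 2 (adjusted p = 0.0518), and the het call without het e18.5 replicate 2 or 3 or het d2 replicate 2 (adjusted p up to 0.0757). Over the whole span the rise was 8.92-fold in KO cells (3.16, SE 0.42, adjusted p = 8.2e-07) and 8.33-fold in het cells (3.06, SE 0.41, adjusted p = 1.1e-06).

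**Figure D2:**
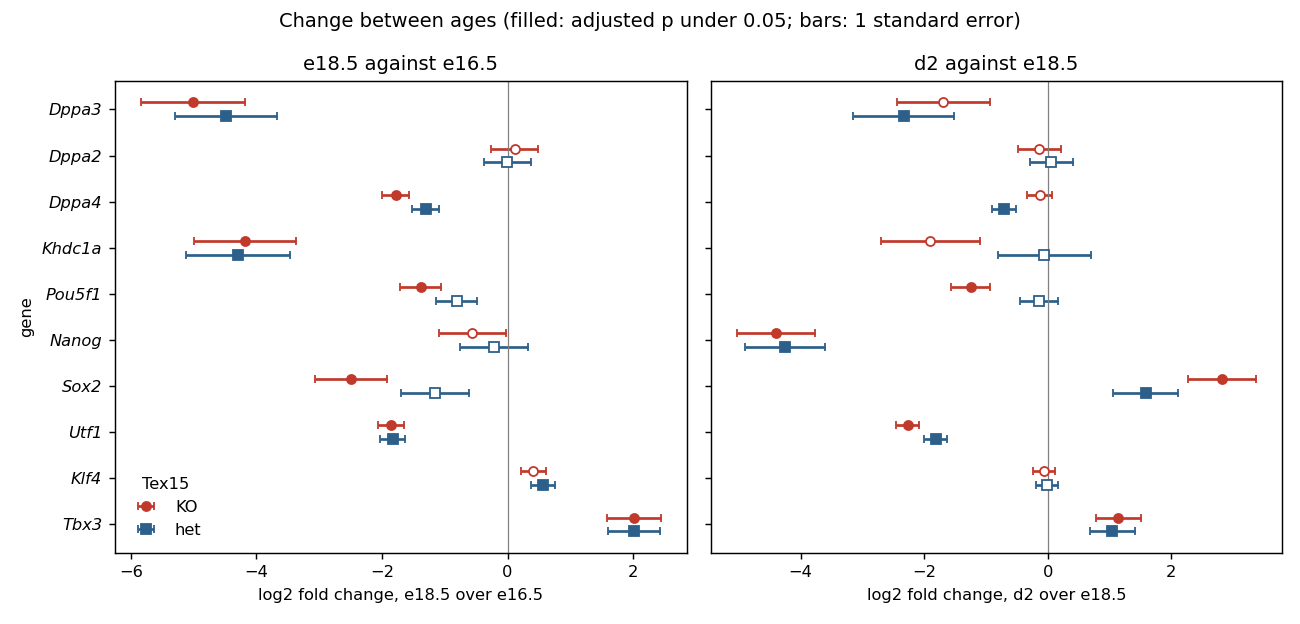
Log2 fold change of each gene at e18.5 relative to e16.5 (left) and at d2 relative to e18.5 (right), KO (circles) above het (squares), with bars of 1 standard error and filled symbols where the adjusted p was under 0.05. Dppa3 and Khdc1a fell in the fetal step (-4.19 to -5.02) and Dppa3 again in het cells in the step to d2 (-2.33), the fall of Nanog, -4.40 in KO and -4.25 in het cells, came in the step to d2, and Utf1 fell in both.

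The libraries differed in other ways between ages. The 10 immediate early genes (Fos, Egr1, Dusp1 and others), which respond within minutes to growth factors or to handling of cells, summed to 150 to 227 CPM at e16.5 and 183 to 227 CPM at e18.5, and to 1346 to 1678 CPM at d2. Stroma markers summed to 122 to 153 CPM in KO cells and 140 to 298 CPM in het cells at e16.5, 225 to 244 CPM in KO and 214 to 267 CPM in het cells at e18.5, and 217 to 340 CPM in KO and 167 to 261 CPM in het cells at d2. The 9 Sertoli markers summed to 28.5 to 37.0 CPM in KO and 44.1 to 48.8 CPM in het cells at e16.5. At e18.5 they summed to 51.5 to 58.2 CPM in KO and 50.3 to 56.7 CPM in het cells. At d2 the sums were 60.7 to 80.6 CPM in KO and 77.7 to 92.0 CPM in het cells. For d2 relative to e16.5, 4 of the 9 passed as higher and 0 as lower in each genotype. Of all genes, 20.8% were higher in KO and 20.5% in het cells. The part of any of these groups in the age changes was not tested.

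The 3 het libraries at e16.5 spread widely for some of the 10 genes. Dppa3 had 733, 264 and 53.7 CPM in replicates 1, 2 and 3, a 13.6-fold range. Khdc1a spanned 8.11-fold, Sox2 7.76-fold and Nanog 4.60-fold, each with replicate 1 highest and replicate 3 lowest, and Dppa2 spanned 2.12-fold in the same order. The other genes ranged 1.88-fold (Dppa4), 1.75-fold (Tbx3), 1.51-fold (Klf4), 1.15-fold (Pou5f1) and 1.07-fold (Utf1), and for Klf4 and Tbx3 replicate 3 was the highest. Among 14463 genes with at least 10 counts in each of these libraries, the median range was 1.46-fold and 19.9% spanned at least 2-fold, as did 5 of the 10. Ranges as wide as that of Dppa3 were found for 0.0138% of them, of Khdc1a for 0.0968%, of Sox2 for 0.124% and of Nanog for 0.996%. These genes had the widest ranges of the 10 and were picked after the values were seen, so these shares only describe them. The order of replicate 1 over 2 over 3 with at least 2-fold between the ends held for 5 of the 10 genes, against 3.22% of the 14463 (465 genes), and this order was chosen after the values were seen.

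In the 3 KO libraries at e16.5 the same genes spread less, by 2.55-fold for Khdc1a, 2.32-fold for Sox2, 2.04-fold for Nanog and 2.00-fold for Dppa3. The median range there was 1.35-fold over 14653 genes, and 4.64%, 6.95%, 11.3% and 12% of them ranged as widely as these 4. These 4 genes were picked for their wide het ranges, which by itself favours narrower ranges in other groups. Wide ranges were also found in KO d2 libraries, 5.61-fold for Dppa3 (2.07-fold without replicate 2) and 4.29-fold for Tbx3 (3.01-fold without replicate 2). Sox2 ranged 3.86-fold and Pou5f1 3.30-fold there. Of 13229 genes compared, 1.06%, 2.76%, 3.86% and 6.84% ranged as widely as Dppa3, Tbx3, Sox2 and Pou5f1. Khdc1a ranged 56.9-fold, with 1 count in its lowest library. At d2 28.5% of genes compared in KO cells spanned at least 2-fold. At e16.5 the highest KO library was replicate 2 for Dppa3, Nanog and Sox2 and replicate 3 for Khdc1a. Het replicate 1 lay within the KO range for Dppa3, Khdc1a and Nanog, whereas het replicate 3 was below every KO library for all 4 genes. Other genes of the lists shared the order in het cells: 5 of 16 other pluripotency genes with enough counts (Nr5a2, Sall4, Lin28a, Dppa5a and Lefty2), 4 of 10 other primordial germ cell genes (Tfap2c, Ifitm3, Ifitm1 and Pdpn), 1 of 7 genes near or related to the 10 (Mycn) and 1 of 8 germ cell markers (Sycp3). None of the 8 immediate early genes, 6 Sertoli, 5 Leydig or 8 stroma markers with enough counts did, nor did any of 5 endothelial or 4 macrophage markers. The reverse order, with replicate 3 at least 2-fold over replicate 1, held for 3 of the stroma, 1 of the endothelial and 1 of the macrophage markers, and for 7.7% of all genes. The germ cell markers summed to 6701, 6151 and 5853 CPM in het replicates 1, 2 and 3, and the stroma markers to 140, 298 and 285 CPM, against 6589 to 6901 and 122 to 153 CPM in the KO libraries. Their part in the spread was not tested.

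**Figure D3:**
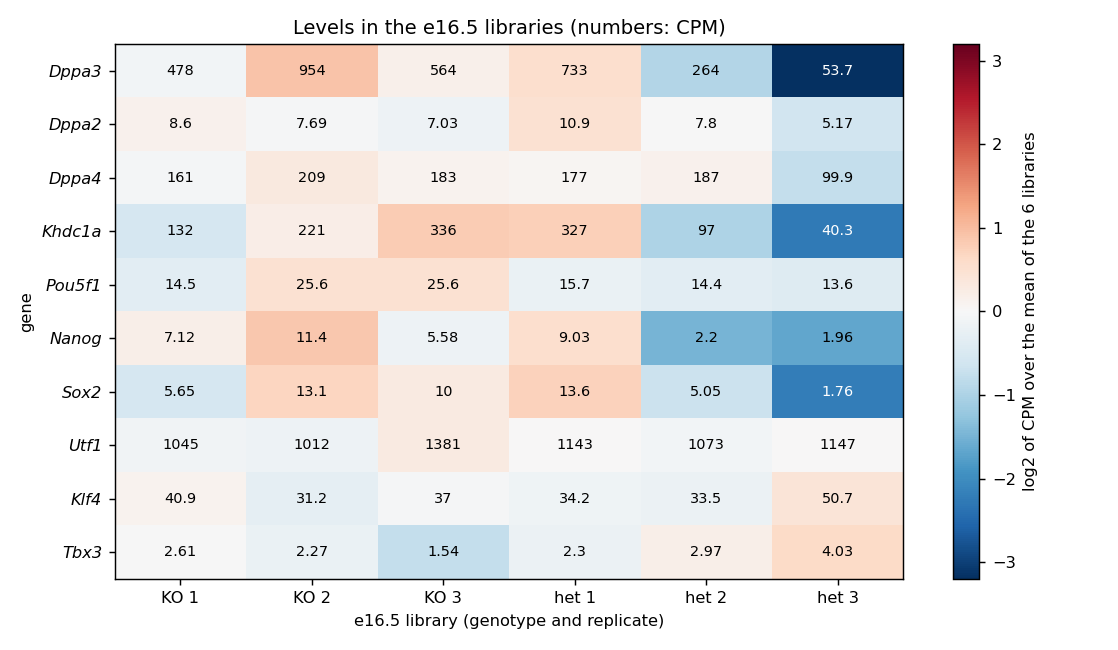
Levels in the 6 libraries of e16.5, with the CPM written in each cell and the colour giving the log2 ratio to the mean of the 6 libraries. Het replicate 3 has 53.7 CPM of Dppa3, 40.3 of Khdc1a, 1.96 of Nanog and 1.76 of Sox2, the lowest of the 6 for each, while Utf1 stays between 1012 and 1381 CPM.

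The second question was whether loss of Tex15 changed these genes at any age, fitted with edgeR within each age. No gene of the 10 passed at e16.5, where 0.0061% of 16384 genes did (Tex15 alone), none passed at e18.5, against 2.33% of 18075, and none of the 9 tested passed at d2, against 2.8% of 15343. Nanog was under the count filter at d2. At an unadjusted p under 0.05 there were 1 (Pou5f1), 0 and 2 (Pou5f1 and Utf1) at the 3 ages, where 7.73%, 11.3% and 16.2% of all genes reached it, and DESeq2 called 0 at each age. The median log2 fold change of KO over het was 0.35, 0.01 and -0.32 at e16.5, e18.5 and d2, against -0.01, -0.01 and -0.02 over all genes. Genotypes overlapped for all 10 genes at e16.5 and at e18.5, where 13.3% and 16.8% of genes did not overlap.

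At e16.5 the 4 genes whose het libraries spread most also had the largest standard errors. KO over het was 0.91 for Dppa3 (SE 0.95), 0.84 for Nanog (SE 0.52), 0.55 for Khdc1a (SE 0.84) and 0.47 for Sox2 (SE 0.55), with adjusted p of 0.679 to 0.871. Without het replicate 1 these became 2.04, 1.92, 1.72 and 1.47, and without het replicate 3 they were 0.40, 0.48, 0.10 and 0.01, none of which passed (adjusted p at least 0.0998). Group means of Dppa3 were 665 ± 254 CPM in KO and 350 ± 348 CPM in het cells (SD, n = 3 each). For Utf1 they were 1146 ± 204 CPM in KO and 1121 ± 41.9 CPM in het cells, with a log2 fold change of 0.01. Pou5f1 was 0.57 higher on the log2 scale in KO cells (SE 0.25, unadjusted p = 0.0397, adjusted p = 0.641), with KO replicate 1 among the het libraries and the other 2 above them. Sertoli markers summed to 28.5 to 37.0 CPM in KO and 44.1 to 48.8 CPM in het cells at e16.5, with none of 7 tested passing. Leydig markers summed to 104 CPM in het replicate 2, 24.7 and 27.3 CPM in het replicates 1 and 3, and 19.9 to 28.3 CPM in KO cells. Median log2 fold changes of KO over het were -0.62 for Sertoli, -1.33 for Leydig, -1.37 for stroma, -0.27 for endothelial and 0.17 for macrophage markers, and no marker passed. The part of these markers in the values of the 10 genes was not tested.

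At e18.5 values of KO over het ran from -0.85 (Sox2, SE 0.52) to 0.67 (Khdc1a, SE 0.34), with adjusted p of 0.477 or more. Dppa3 averaged 20.6 ± 9.43 CPM in KO and 15.6 ± 0.963 CPM in het cells (SD, n = 3 each), so that here the KO libraries had the wider spread. Of 4 tested macrophage markers 2 passed at this age, both higher in KO cells, as did 1 of 8 tested stroma markers. Of all genes, 2.33% passed in either direction. The 6 macrophage markers summed to 83.1 to 101 CPM in KO and 25.4 to 37.3 CPM in het cells. The part of macrophage and stroma markers in the values of the 10 genes was not tested.

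At d2 Pou5f1 was the gene with the smallest p. It was at 1.505, 3.94, 3.65 and 4.96 CPM in KO libraries and 5.98, 6.94, 7.49 and 9.80 CPM in het libraries, from 14 to 59 and 59 to 99 counts. All 4 KO libraries lay below all 4 het libraries, which held for 1 of the 10 genes and for 4.32% of 15065 genes in this direction (9.71% in either). KO over het was -1.10 (SE 0.40, unadjusted p = 0.0129), which did not pass after adjustment (adjusted p = 0.163) or without KO replicate 2 (-1.16, adjusted p = 0.158). Over the other settings adjusted p ran from 0.0356, when all ages shared 1 estimate of spread, to 0.373 without KO replicate 1. Utf1 was at 65.8 ± 16.3 CPM in KO and 89.7 ± 15.1 CPM in het cells (SD, n = 4 each; -0.45, SE 0.18, adjusted p = 0.211), with 2 KO libraries inside the het range. Dppa3 had a value of 1.07 (SE 0.54, adjusted p = 0.333) that was 0.29 without KO replicate 2 (adjusted p = 0.822), whose 14.6 CPM compare with 2.60 to 5.38 CPM in the other KO and 1.27 to 4.76 CPM in the het libraries. Khdc1a had -1.12 (SE 0.65, adjusted p = 0.429), and KO replicates 1 and 4 lay below the het libraries while 2 and 3 lay among them. Of 8 germ cell markers, 2 passed at d2, both higher in KO cells (Dazl, 0.61, adjusted p = 0.0349, and Sycp3, 0.63, adjusted p = 0.00569), and the 8 summed to 4269 to 5669 CPM in KO and 3957 to 4408 CPM in het cells. Of 7 tested Sertoli markers 1 passed, Sox9, lower in KO cells (-1.25, adjusted p = 0.0189), and the 9 summed to 60.7 to 80.6 CPM in KO and 77.7 to 92.0 CPM in het cells. The part of these markers in the d2 values was not tested.

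**Figure D4:**
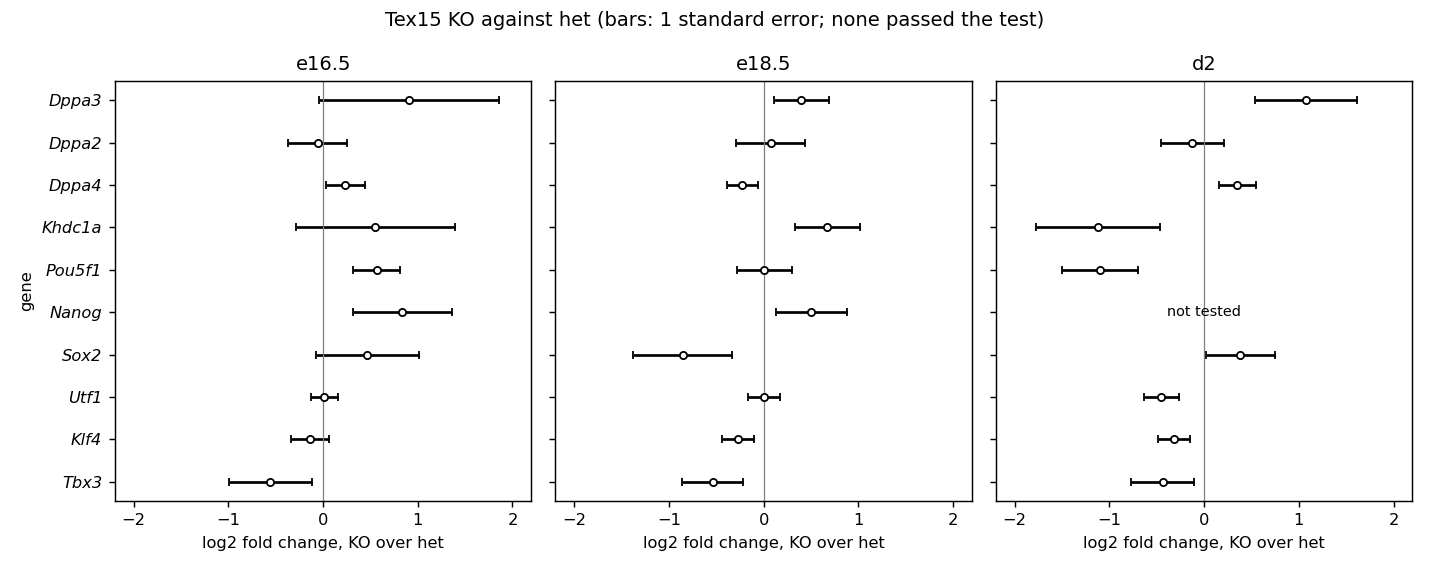
Log2 fold change of KO over het for each gene at e16.5, e18.5 and d2, with bars of 1 standard error from the edgeR fits. No gene passed at any age; the bars are widest for Dppa3 and Khdc1a at e16.5, and Pou5f1 stands at 0.57, 0.01 and -1.10 at the 3 ages.

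Whether the KO effect changed between ages was tested as a difference of the 2 fold changes in the fit of all libraries. None of the 10 genes passed for e18.5 minus e16.5, d2 minus e18.5 or d2 minus e16.5, where 0.0967%, 0.526% and 0.8% of 18619 genes did. Unadjusted p was under 0.05 for 0, 2 and 1 of them, against 6.39%, 13.5% and 11.6% of genes, and DESeq2 called 0, 0 and 1. Pou5f1 came nearest, its KO over het value being lower at d2 than at e16.5 by a log2 difference of -1.68 (SE 0.44, adjusted p = 0.0716), and than at e18.5 by -1.10 (SE 0.44, adjusted p = 0.264). The first of these passed with DESeq2 (adjusted p = 0.0105), without KO e16.5 replicate 1 (adjusted p = 0.042) and without KO d2 replicate 4 (adjusted p = 0.0352), and adjusted p ran up to 0.203 without other libraries. The Pou5f1 steps at d2 relative to e18.5 in KO and het cells are therefore not shown to differ. For the other 9 genes adjusted p was 0.364 or more in each of these tests.

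Other genes of the pluripotency network and of primordial germ cells were followed through lists of 24 and 14 genes. At e16.5, 21 and 12 of them were tested and none differed between KO and het cells (edgeR). The smallest p in the first list belonged to Tfcp2l1 (0.55, SE 0.22, adjusted p = 0.636) and Nodal (1.11, SE 0.56, adjusted p = 0.65), and in the second to Dnd1 (0.37, SE 0.20, adjusted p = 0.659) and Kit (0.25, SE 0.14, adjusted p = 0.664). At e18.5, 2 of 23 and 1 of 13 passed, against 2.33% of all genes. Tfcp2l1, a factor of naive pluripotency, was 1.83-fold higher in KO cells (30.7 CPM, against 16.8 CPM in het cells, adjusted p = 0.0194). Fbxo15, a classical target of OCT4 and SOX2, was 1.54-fold lower (40.3 CPM, against 61.8 CPM, adjusted p = 0.0404). Kit, the receptor for stem cell factor, was 1.44-fold higher (125 CPM, against 86.9 CPM, adjusted p = 0.0389). At d2 none of 20 and 14 passed, and the smallest p were those of Sall4 (0.32, adjusted p = 0.199), Esrrb (-0.79, adjusted p = 0.216), Lin28b (0.39, adjusted p = 0.131) and Alpl (-0.51, adjusted p = 0.217). The median of the 24 genes was 0.17, -0.39 and -0.18 at e16.5, e18.5 and d2, and that of the 14 genes 0.25, -0.10 and -0.19, against -0.01, -0.01 and -0.02 over all genes.

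Of the tested genes among 12 that lie near the 10 or are related to them (8, 9 and 8 at the 3 ages) and among the 10 immediate early genes (9, 8 and 10), none passed between KO and het cells at any age. The smallest p at e16.5 were those of Sox3 (1.49, adjusted p = 0.636), Morc1 (0.22, adjusted p = 0.687), Dusp1 (-0.48, adjusted p = 0.639) and Fos (-0.95, adjusted p = 0.648). At e18.5 the value was 0.20 for Morc1 (adjusted p = 0.527), and among the immediate early genes the smallest p were those of Fosb (0.69, adjusted p = 0.472) and Dusp1 (-0.29, adjusted p = 0.491). At d2 Apobec1, which lies close to Dppa3 and Nanog, had the smallest (-1.77, adjusted p = 0.113), followed by Fos (-0.43, adjusted p = 0.2), Dusp1 (-0.34, adjusted p = 0.203) and Mycn (0.52, adjusted p = 0.208).

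The same lists were followed with age. At e18.5 relative to e16.5, 6 of 22 tested pluripotency genes passed in KO cells, all lower, where 35.1% of all genes passed. In het cells 2 passed, where 17.8% of all genes did. Counted in either direction, neither share exceeded that of all genes. Counted as lower only, 17.7% of all genes passed in KO cells, a smaller share than 6 of 22, and 10.2% in het cells. The 2 in het cells were both lower: Tfcp2l1 (-1.30, adjusted p = 0.000343) and Sall4, a zinc finger factor of germ cells (-0.65, adjusted p = 0.0221). Of 14 primordial germ cell genes, 9 passed in KO cells (2 higher, 7 lower), against the same 35.1% of all genes, and 8 in het cells (2 higher, 6 lower), against 17.8%. In het cells these included Dnd1, an RNA-binding protein that protects germ cells from tumour formation, which was 4.51-fold lower (-2.17, SE 0.28, adjusted p = 6.5e-06), Cbfa2t2, a partner of OCT4 in germ cells (-0.57, adjusted p = 0.0069), and Alpl, the alkaline phosphatase of primordial germ cells (-0.82, adjusted p = 0.021). Those higher in het cells were Rhox9 (2.31, adjusted p = 0.019) and Sox17 (3.09, adjusted p = 0.0238). In het cells Dusp1 alone of the immediate early genes passed (0.68, adjusted p = 0.00667).

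At d2 relative to e18.5, 10 of the 22 pluripotency genes passed in KO cells (4 higher, 6 lower) and 8 in het cells (4 higher, 4 lower), smaller shares than the 55% of all genes in KO and 51.2% in het cells. Nr5a2, a nuclear receptor that can stand in for OCT4 in reprogramming, was 10.6-fold higher in het cells (131 CPM, against 12.3 CPM at e18.5, adjusted p = 5.8e-06) and 14.8-fold higher in KO cells (139 CPM, against 9.40 CPM, adjusted p = 1.4e-06). Tcl1, a coactivator of AKT, was 10.1-fold higher in het cells (3.33, SE 0.64, adjusted p = 0.000181), and Zfp296 3.43-fold higher (1.78, adjusted p = 0.000164). Lower in het cells were Otx2 (-3.52, SE 0.63, adjusted p = 8.6e-05), Fbxo15 (-2.55, SE 0.33, adjusted p = 1.3e-06) and the NODAL coreceptor Tdgf1 (-2.16, SE 0.40, adjusted p = 7.7e-05). Of the 14 primordial germ cell genes, 7 passed in KO cells (5 higher, 2 lower) and 5 in het cells (4 higher, 1 lower). In either direction these shares were again not above the 55% and 51.2% of all genes. Of all genes, 25.3% were higher and 29.7% lower in KO cells, and 24.1% higher and 27% lower in het cells. Alpl (1.40, adjusted p = 2.3e-05), Tfap2c (1.65, adjusted p = 0.00207) and Lin28b (0.58, adjusted p = 0.00151) rose in het cells, and Prdm1, the BLIMP1 repressor that founds the germ line, fell (-0.82, adjusted p = 0.00121). All 10 immediate early genes rose in KO cells and 9 in het cells at this step, Egr1 16.1-fold (4.01, SE 0.19, adjusted p = 1.4e-14), Zfp36 6.62-fold and Dusp1 2.70-fold in het cells. Among the nearby or related genes, Mycn (2.89, adjusted p = 1.6e-06) and Klf9 (1.48, adjusted p = 3e-05) rose and Morc1 (-0.38, adjusted p = 0.0113) fell in het cells at this step.

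Similarity of pattern across all 20 libraries was described by Pearson's r of log2 CPM among 14030 candidate genes, for the 8 genes whose highest group mean was at least 10 CPM. Libraries of 1 age resemble each other, so the values describe a shared course with age more than anything else they hold. Utf1 ran closest to Mrps31 (r = 0.98) and Rab3gap2 (0.97), Dppa3 to Ints10 and Btbd7 (both 0.97), and Dppa4 to Ints10 and Fhl1 (both 0.97). Khdc1a was closest to Arel1 (0.94) and Supt6 (0.93), Tbx3 to Jade2 (0.95) and Nell2 (0.94), and Pou5f1 to Pramef8 (0.92) and Plec (0.91). Sox2 was closest to Eif4a2 and Gnb4 (both 0.90) and Klf4 to Tmcc3 (0.89) and Fasn (0.85). Among the 10 genes themselves the highest r was that of Dppa3 with Dppa4 (0.98), followed by Dppa3 with Utf1 and Khdc1a with Pou5f1 (both 0.91).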

How the data were processed

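Male germ cells sorted for GFP were sequenced as 20 libraries in 6 groups. The deposited tables hold raw, unscaled counts per gene symbol and repeat name for each library, 1 table per age. The submitters' processing notes name STAR, featureCounts, edgeR and Bowtie and the mouse build mm9, with no versions or roles, and RNA was amplified with Ovation kits per the labels' protocols. Whether strand was used and how shared reads were counted are not given in the sources used here. Besides 1217 repeat names, both fetal tables listed 24495 symbols and the d2 table had 24341; repeats were left out of library sizes.

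Each KO to het comparison used only the libraries of its age, in edgeR 4.0.16 under R 4.3.3 (filterByExpr, at least 10 counts and 15 in total, TMM factors, robust quasi-likelihood F test, Benjamini-Hochberg over all genes tested, threshold 0.05). All 10 genes passed the filter except Nanog at d2. Age changes and differences of the KO effect used all 20 libraries together, over the 23853 symbols that the tables share. Standard errors were derived from the fold change and its F value. Alternatives were: a 1 CPM filter or none, DESeq2 1.42.0, scaling by median ratios, all ages in 1 fit, repeats added to library sizes, a replicate block and leaving out each library. The scripts were tested on simulated counts.

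The 10 genes, the lists of related genes and the cell markers were chosen with earlier results of these data known. The text names all 10 genes, Tex15, and from each list of related genes, per KO comparison and for het cells per age step, up to 3 called genes per direction with the smallest p, or where none was called 2 given as values. For members whose highest group mean was at least 10 CPM it also names the 2 genes with the highest Pearson r of log2 CPM over the 20 libraries, leaving out Gm and Rik symbols. Some results that the rule would name are not reported here. For KO cells across ages and for d2 relative to e16.5 the lists are given as counts or left out. Nr5a2 in KO cells, Morc1 beside Dppa2, and the cell markers set beside the KO comparisons were added after their values were seen. The minimum of 10 counts and the order of the e16.5 libraries were also set after the data were seen. The labels do not say whether replicate numbers pair KO with het libraries, and the main fits left them out. Deviations from group means of libraries with the same number had r of -0.25 to 0.11, over 0.1 in 1 of 10 pairs. At e18.5 libraries with the same number had r of 0.05 to 0.11, and those with different numbers -0.14 to 0.04. The replicate block gave 599 calls at that age, against 422 without it. Whether libraries of the same number shared a batch was not tested.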

Additional observations from a re-analysis of the deposited data

Results flagged for a closer look

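The level of Tex15 in the 4 KO d2 libraries was 2.04, 102, 2.47 and 2.61 CPM, and replicate 2 stood apart from the others, with a gap to the nearest library of 0.994 of the range of the group. About 1 in 20 groups would be picked out in this way by chance. KO over het for Tex15 at d2 was -4.97 (edgeR, adjusted p = 0.167) with this library and -8.45 (adjusted p = 3.1e-14) without it.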

How the results depend on the processing

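Of 455 values of the 10 genes under other settings, 439 kept their direction and their side of the threshold, 5 newly passed and 11 turned in direction. On leaving out 1 library, 569 of 632 did so, 17 no longer passed, 8 newly passed and 38 turned.

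The number of all genes called between KO and het cells moved more. At e16.5 it was 1, with 17 by DESeq2, 2 with no filter, 0 with all ages in 1 fit and 1 to 25 without single libraries (25 without het replicate 1). At e18.5 it was 422, with 599 with the replicate block, 584 by DESeq2, 152 with all ages in 1 fit and 274 to 502 without single libraries. At d2 it was 430, with 770 by DESeq2, 770 with all ages in 1 fit, 235 with the replicate block and 187 to 573 without single libraries. For e18.5 relative to e16.5 in het cells, 3313 genes were called, and 1740 to 4077 without single libraries. Differences of the KO effect numbered 18, 98 and 149 for e18.5 minus e16.5, d2 minus e18.5 and d2 minus e16.5, and 63, 356 and 311 by DESeq2, with 3 to 38, 31 to 226 and 92 to 237 without single libraries. The causes were not tested.

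Values near 0 turned in direction. With the replicate block, KO over het for Utf1 was -0.0041 at e16.5 and -0.030 at e18.5. The block also gave d2 over e18.5 as 0.084 for Khdc1a, 0.043 for Klf4 and -0.037 for Dppa2 in het cells and 0.0050 for Klf4 in KO cells, and d2 over e16.5 as -0.073 for Dppa2 in het cells. It changed no other direction and no call of the 10 genes. For Dppa2 in het cells, DESeq2 gave 0.026 for e18.5 over e16.5 and -0.020 for d2 over e18.5, and median-ratio factors 0.025 and -0.019.

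Without single libraries, KO over het at e16.5 ran from -0.24 to 0.084 for Klf4, -0.14 to 0.094 for Utf1, -0.0015 to 0.40 for Dppa4 and -0.29 to 0.24 for Dppa2. At e18.5 it ran from -0.22 to 0.20 for Utf1, -0.26 to 0.57 for Dppa2 and -0.13 to 0.088 for Pou5f1, and at d2 from -0.27 to 0.068 for Dppa2. For e18.5 over e16.5 the ranges were -0.57 to 0.89 for Nanog and -0.50 to 0.31 for Dppa2 in het cells, and -0.26 to 0.27 for Dppa2 in KO cells. For d2 over e18.5 they were -0.31 to 0.14 for Khdc1a, -0.12 to 0.050 for Klf4 and -0.16 to 0.55 for Dppa2 in het cells, and -0.20 to 0.079 for Klf4 and -0.32 to 0.21 for Dppa2 in KO cells. For d2 over e16.5 they were -0.039 to 1.44 for Sox2 and -0.20 to 0.36 for Dppa2 in het cells, and -0.14 to 0.050 for Dppa2 in KO cells.

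Depth limits Nanog at d2, with at most 4 counts, and Khdc1a in KO d2 cells. Each group had 3 or 4 libraries, and standard errors at e16.5 were largest for the genes with the widest het spread.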

Other observations

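The spread between e16.5 het libraries was also described over all genes, after it had been seen in the 10. Genes lower at e18.5 than at e16.5 in KO cells (3287 genes) had median log2 deviations from the het e16.5 mean of 0.16, 0.05 and -0.21 in het replicates 1, 2 and 3. Genes higher at e18.5 in KO cells (3257 genes) had -0.29, -0.11 and 0.44, while all 18619 genes tested had -0.01, -0.01 and 0.04. In the KO e16.5 libraries the same measure, with genes chosen in het cells, stayed between -0.07 and 0.06 for genes lower and between -0.07 and 0.16 for genes higher at e18.5. Het replicate 3 was below the het mean for genes lower at e18.5 and above it for genes higher at e18.5, and het replicate 1 the reverse. Genes higher at e18.5 in KO cells included 5 of 9 stroma, 3 of 9 Sertoli and 2 of 5 endothelial markers, with 0 lower in each list. Of all genes, 17.5% were higher. Stroma markers summed to 140, 298 and 285 CPM in het e16.5 replicates 1, 2 and 3. Neither the order of the replicates nor the part of these markers in it was tested.

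Of the 10 genes, 2 pairs are neighbours on a chromosome. Dppa3 and Nanog lie next to each other on chromosome 6, between Gdf3 and Slc2a3. Dppa3 fell 32.3-fold in KO and 22.4-fold in het cells at e18.5 relative to e16.5, where Nanog did not pass. Dppa4 and Dppa2 lie side by side on chromosome 16, and Dppa4 fell at that step in both genotypes while Dppa2 passed at none. The difference between the genes of a pair was not tested.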
